A study of Homo sapiens with 8 samples.

Results

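The mRNAs described here are those whose 5′ leader, the stretch between the cap and the coding sequence (CDS), already held many ribosome footprints in unstressed HEK293T cells. Each of 19964 genes was represented by 1 coding transcript, namely that whose CDS was best covered in the pair of control ribo-seq libraries, and a gene was kept when the leader of that transcript held at least 50 ribo-seq reads in sum over these 2 libraries. ATF4, ATF5, PPP1R15A, PPP1R15B, SLC35A4, IFRD1, PTP4A1 and AZIN1 were left out by name. Of 209 genes past the threshold, 6 were among these 8, which left 203 members. Members were chosen by their control leader reads, so these reads, and every ratio made from them, are given below as a description with no test. The tests concern the CDS and the mRNA, which the choice of members did not use, except that the transcript itself was picked by its control CDS reads.

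A ribosome that scans from the cap can initiate at an upstream open reading frame (uORF) before it reaches the CDS, and such footprints are counted in the leader. Translated uORFs usually lower initiation at the CDS downstream. Arsenite causes oxidative stress and leads to phosphorylation of the initiation factor eIF2, which delivers the initiator tRNA, and while most mRNAs then lose ribosomes, some mRNAs with translated uORFs are known to keep them. The comparison made here asks which leader-translated mRNAs kept the ribosomes on their CDS relative to other mRNAs and which did not.

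HEK293T, a human embryonic kidney line that carries the SV40 large T antigen, received 40 µM sodium arsenite or vehicle alone for 30 min, and no allele or transgene differed between the groups. Ribo-seq, which sequences the fragments that ribosomes protect, and mRNA-seq of randomly fragmented poly(A)+ mRNA were made from the same lysates, in 2 biological replicates each, which gave 8 libraries. The study's line was not checked against other lines, but NEFM, VIM and LIN28B, which HEK293 cells express, were present in all 4 mRNA-seq libraries, while PTPRC, ALB and HBA2 had 0 to 15 reads. COL1A1, looked up as a fibroblast marker, went the other way with 44 to 266 reads. KRT8, looked up as a marker of HEK293, had only 43 to 158. The ribo-seq libraries held 1900880 (control) and 1023971 (arsenite) reads on the chosen transcripts in replicate 1, and 7270584 and 3043784 in replicate 2. The mRNA-seq libraries held 3990862 to 21704978 reads. Replicate 2 therefore supplied 88.6% of the control leader reads by which members were chosen, and 128 of the 203 members had under 10 leader reads in control replicate 1, 20 of them none. Changes are arsenite against control. Translation efficiency (TE) is ribo-seq reads on the CDS relative to mRNA-seq reads over the transcript. After TMM scaling, "higher" means that an mRNA kept or gained ribosomes compared with most other mRNAs, and a global loss of translation is not part of any value. With 2 libraries a group, spread is estimated across genes, and an exact test of a single value could not pass 0.05.

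Members ranged widely in how their footprints divided between leader and CDS. Over both control libraries they had 50 to 605 leader reads (median 79) and 0.107 to 2245 leader reads per 100 CDS reads (median 4.61). This ratio is of reads and not per length, so its order among mRNAs also depends on how long their leader and CDS are, and it is compared by direction only between libraries of the same mRNA. In 69 members it was over 10, in 17 over 50 and in 8 over 100, counting POMZP3, whose CDS held 0 ribo-seq reads. At the edge of the rule stood CDK4, HNRNPA0, MARCH5 and POLA2, with 50 leader reads each, and just outside it CNPY2, GMNN, HDAC2 and UBE2D3, with 49. Their log2 TE changes ran from -0.63 (HNRNPA0) to 0.41 (POLA2) inside and from -0.68 (HDAC2) to 0.20 (UBE2D3) outside. Of the members, 97 had 1 coding transcript and 106 had more. In 41 of the latter another transcript of the gene had fewer than 50 leader reads, so their place among the members rests on the transcript taken. The mRNA-seq reads of members also lay in the leader more often than usual, with a median of 10.4% and 10.6% of their reads (control, replicates 1 and 2) against 1.95% and 3.01% over all genes tested.

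Of 201 members tested for TE, 7 rose (3.48%), against 1.02% of all 10272 genes tested, and 11 fell (5.47%), against 1.08%. The remaining 183 did not pass the threshold of 0.05 on the adjusted p of edgeR's quasi-likelihood test. Members had more CDS reads than other genes (median 1798 against 300 in control), and the part of depth in these shares was not tested. The median log2 TE change was -0.08 over the members and -0.01 over all genes tested, with quartiles of -0.35 and 0.20 for members and -0.28 and 0.26 for all genes. All 7 members that rose also rose in ribosome occupancy (CDS ribo-seq reads alone), and 10 of the 11 that fell also fell there. The same CDS reads enter both measures, so this overlap is not separate support, and the like overlap over all genes is not given. Leader-translated mRNAs thus went both ways, and most did not pass the test in either direction.

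**Figure D1:**
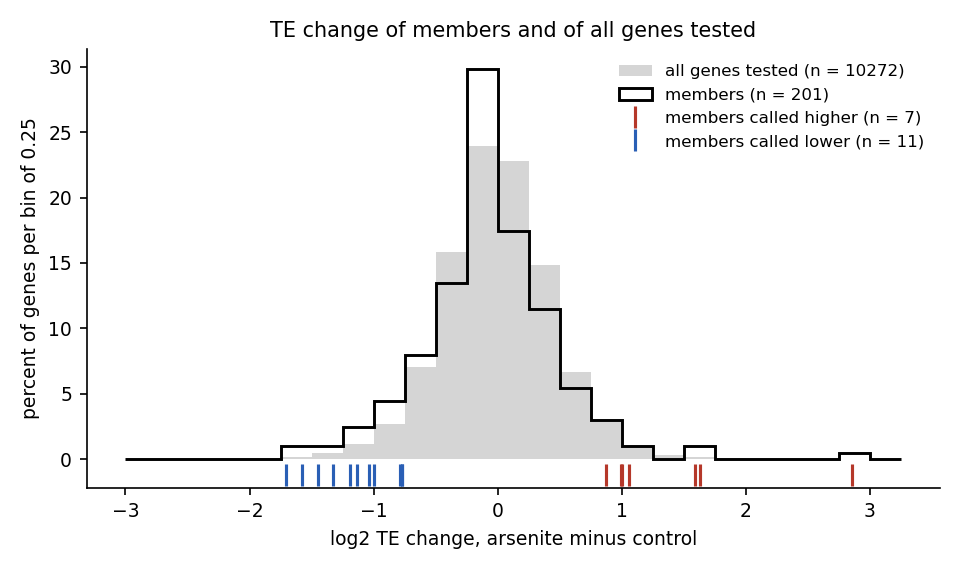
Log2 TE change (arsenite minus control, x axis) as the percent of genes in bins of 0.25 (y axis), for all 10272 genes tested (grey) and for the 201 members tested (black outline). Ticks under the axis mark the 7 members called higher (red) and the 11 called lower (blue), which lie at both ends of a distribution that is otherwise centred near 0.

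C19orf48, an open reading frame of little known function, had the largest rise. Its leader held 32 and 462 ribo-seq reads in control (replicates 1 and 2) against 27 and 336 in arsenite. Its CDS held 4 and 18 in control, compared with 9 and 56 under arsenite. As CPM (CDS reads scaled to a common library size with TMM factors) this was 2.31 and 2.34 in control and 9.59 and 17.2 in arsenite, so that both arsenite libraries lay above both controls. TE rose by 2.86 ± 0.32 on the log2 scale (SE; edgeR adjusted p = 0.00846), or 7.24-fold. When footprints on the entire mRNA, leader included, were counted in place of those on the CDS, the change was 1.05 (edgeR adjusted p = 0.0327). Without the control or the arsenite ribo-seq library of replicate 2 it was 2.16 and did not pass the test (edgeR adjusted p = 0.0520 and 0.0551), and at a minimum mean of 50 counts the gene was not tested. Its mRNA did not pass the test (198 and 257 CPM in control, 173 and 246 in arsenite). In control nearly all of its footprints were on the leader, 88.9% (95% Wilson interval 74.7 to 95.6) and 96.2% (94.2 to 97.6) of leader and CDS reads, and in arsenite 75% (58.9 to 86.2) and 85.7% (81.9 to 88.8). The intervals cover counting error only, since PCR copies cannot be told from separate fragments.

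UCP2, an uncoupling protein of the inner mitochondrial membrane, came next. Its CDS stood at 17.3 and 17.8 CPM in control and at 42.6 and 53.4 CPM in arsenite, with no overlap between the treatments, and TE rose by 1.63 ± 0.18 (log2; edgeR adjusted p = 0.00846), or 3.10-fold. The leader share of its footprints was 30.2% (18.6 to 45.1) in control and 29.8% (19.5 to 42.7) in arsenite in replicate 1, and 57.2% (51.7 to 62.5) and 37.6% (32.2 to 43.5) in replicate 2. The share was thus lower in arsenite in the deeper replicate, and within counting error of control in the shallower.

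SMCR7L, the symbol in these files for MIEF1, encodes an adaptor of the outer mitochondrial membrane that recruits the fission protein DRP1, and its leader holds a long uORF that is itself coding. Its CDS was at 32.9 and 39.2 CPM in control and at 67.1 and 76.4 CPM in arsenite. TE rose by 1.05 ± 0.16 (log2; edgeR adjusted p = 0.0233), almost equally in both replicates (1.10 and 1.03). Counted on the entire mRNA, the change was 0.70 and did not pass the test (edgeR adjusted p = 0.0532). Leader reads per 100 CDS reads numbered 188 and 65.8 in control, against 108 and 36.5 in arsenite. The ratio was lower in arsenite in each replicate, on 107 and 198 leader reads in control and 68 and 91 in arsenite.

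PCNXL4, a member of the pecanex family of membrane proteins, rose by 1.59 ± 0.30 (log2 TE; edgeR adjusted p = 0.0360). Its replicates differed in size, since the CDS went from 27.7 to 39.4 CPM in replicate 1 and from 8.46 to 30.4 CPM in replicate 2. Its mRNA fell (log2 change -0.22, edgeR adjusted p = 0.0189). With 2 and 53 leader reads in control, its leader to CDS ratio rests on replicate 2, where it was 81.5 leader reads per 100 CDS reads in control and 32.3 in arsenite.

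TAF7, a subunit of the general transcription factor TFIID, rose without any decrease of its leader share. Its CDS was at 102 and 55.4 CPM in control and at 257 and 96.3 CPM in arsenite, and TE rose by 1.00 ± 0.19 (log2; edgeR adjusted p = 0.0360). The leader held 7.95 and 11.7 reads per 100 CDS reads in control, and 9.54 and 14.7 in arsenite. Both regions of TAF7 thus gained footprints relative to the bulk.

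RPL41 and RPL39, small proteins of the large ribosomal subunit, were the remaining pair. RPL41 had 56.0 and 361 CDS CPM in control and 115 and 547 in arsenite, a rise within each replicate although the replicates lay far apart. Its TE rose by 1.00 ± 0.17 (log2; edgeR adjusted p = 0.0321), while its mRNA fell (log2 change -0.23, edgeR adjusted p = 3.8e-05). Its leader to CDS ratio was not alike in the control libraries, at 86.6 and 0.612 leader reads per 100 CDS reads, so no level of it can be given. The transcript taken for RPL41 held 101 leader reads in control and its other coding transcript 21, so its place among the members rests on that choice. RPL39 had 131 and 113 CDS CPM in control and 236 and 187 in arsenite, and TE rose by 0.87 ± 0.17 (log2; edgeR adjusted p = 0.0360). Its ratio was 3.98 and 30.7 leader reads per 100 CDS reads in control and 2.25 and 13.5 in arsenite, lower in arsenite in both replicates.

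Among the 11 members that fell, PABPC1, the cytoplasmic poly(A)-binding protein, had 419 and 185 CDS CPM in control and 205 and 53.7 in arsenite. TE fell by 1.58 on the log2 scale (SE 0.22; edgeR adjusted p = 0.0162), to 33.5% of control, although its mRNA rose slightly (log2 change 0.19, edgeR adjusted p = 0.0110). Its leader footprints did not follow its CDS, with 0.276 and 4.30 leader reads per 100 CDS reads in control compared with 1.04 and 11.4 in arsenite. The ratio was higher in arsenite in both replicates, on 2 leader reads in each library of replicate 1 and on 61 and 20 in replicate 2.

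PCBP2, a poly(C)-binding protein, had 971 and 1160 CDS CPM in control and 525 and 412 in arsenite, with no overlap. TE fell by 1.33 on the log2 scale (SE 0.20; edgeR adjusted p = 0.0220). The leader held 0.297 and 1.27 reads per 100 CDS reads in control, and 0.609 and 2.90 in arsenite. YBX1, a cold-shock domain protein that packages mRNA, fell by 0.79 (SE 0.14; edgeR adjusted p = 0.0341), from 1304 and 1108 CDS CPM to 839 and 668. EEF1A1, the elongation factor that brings aminoacyl-tRNA to the ribosome, fell by 0.77 (SE 0.12; edgeR adjusted p = 0.0220), from 18003 and 11424 CDS CPM to 10188 and 6574. In all 3 the arsenite libraries lay below both controls. In control replicate 1 none of the 31158 leader and CDS reads of EEF1A1 was in the leader, which allows a share of up to 0.00963%, and in control replicate 2 the share was 0.144% (0.121 to 0.172). BTF3, the beta subunit of the nascent polypeptide-associated complex, fell by 0.77 (SE 0.16; edgeR adjusted p = 0.0440), from 1078 and 477 CDS CPM to 681 and 259.

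Others among those that fell had many leader reads beside their CDS reads. PTP4A2, a phosphatase of the PRL family and the paralog of the left-out PTP4A1, had 17 leader reads against 34 CDS reads in control replicate 1 and 221 against 352 in control replicate 2. In arsenite it had 6 against 7 and 66 against 70, a higher ratio in both replicates. Its CDS went from 19.6 and 45.8 CPM to 7.46 and 21.5 CPM, and TE fell by 1.19 on the log2 scale (SE 0.20; edgeR adjusted p = 0.0310). Many leader reads beside the CDS reads were thus found in PTP4A2, which lost ribosomes relative to other mRNAs. They were also found in SMCR7L, which rose relative to them. These are counts of reads and not per length, so the 2 leaders are not compared in how densely they were occupied. On the relative leader TE described below, SMCR7L was over 1 in both control replicates and PTP4A2 was not.

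CCNI, cyclin I, had 13.3 and 17.5 leader reads per 100 CDS reads in control compared with 0 and 16.7 in arsenite. The 0 stands for 0 of 26 leader and CDS reads, which allows a leader share of up to 11.5%. The CDS went from 52.0 and 93.5 CPM to 27.7 and 33.1 CPM, and TE fell by 1.45 (log2; SE 0.20; edgeR adjusted p = 0.0143). RNF14, a RING-type ubiquitin ligase, had 28 and 8.18 leader reads per 100 CDS reads in control, and 27.8 and 7.58 in arsenite. Its TE fell by 1.13 (log2; SE 0.19; edgeR adjusted p = 0.0277), from 90.7 and 41.4 CDS CPM to 38.3 and 20.2. The ratio of RNF14 thus moved by little while its CDS lost reads. The transcript taken for RNF14 held 70 leader reads in control, and its 6 coding transcripts ranged from 0 to 123, so its ratio depends on that choice.

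CSNK1A1, casein kinase 1 alpha, fell by 1.04 (log2 TE; SE 0.16; edgeR adjusted p = 0.0220), from 162 and 95.7 CDS CPM to 74.6 and 48.1. DR1, a repressor that binds the TATA-binding protein, fell by 0.99 (log2 TE; SE 0.20; edgeR adjusted p = 0.0411), from 32.4 and 53.2 CDS CPM to 20.2 and 27.9. DR1 was the lower member not called in ribosome occupancy (edgeR adjusted p = 0.0699). For both genes the leader to CDS ratio was higher in arsenite in each replicate, most of all for DR1 in replicate 2 (13.9 leader reads per 100 CDS reads in control and 48.4 in arsenite).

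**Figure D2:**
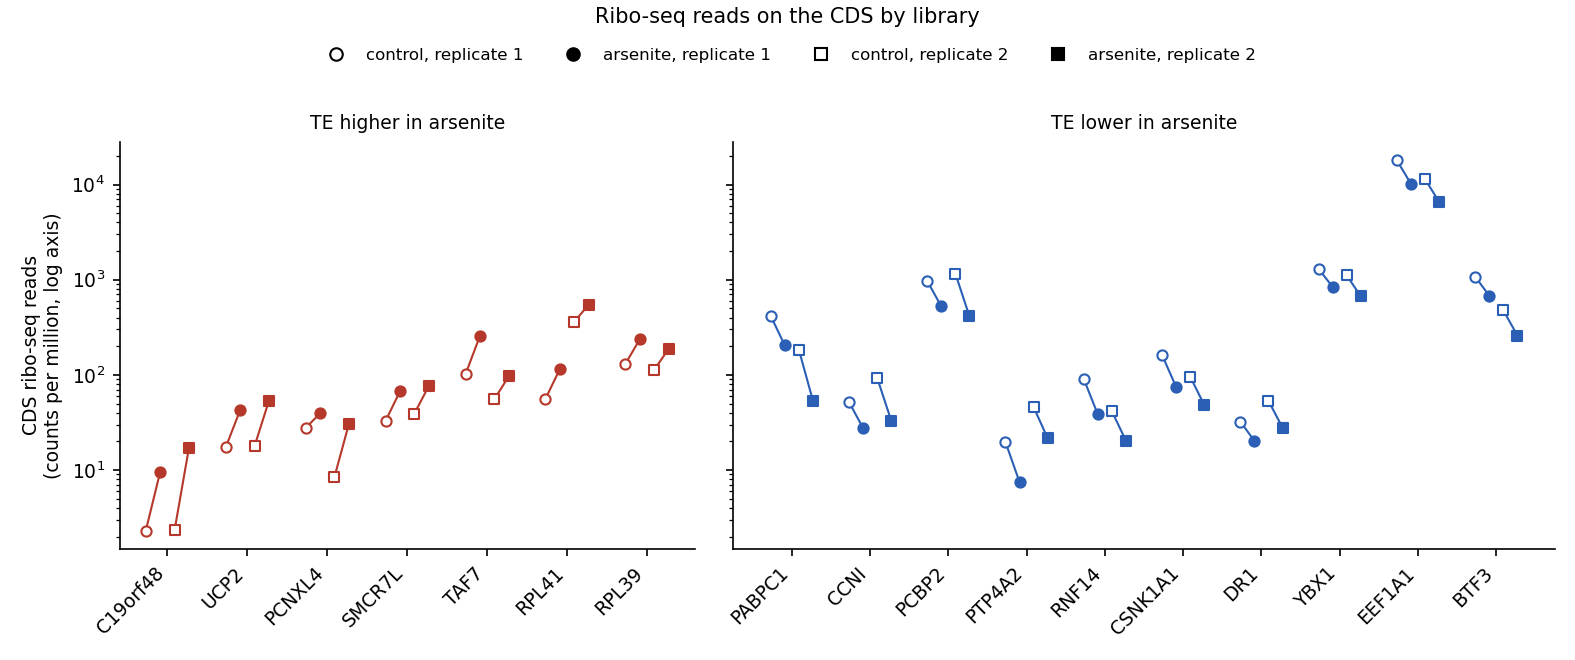
Ribo-seq reads on the CDS in CPM (log y axis) for the 7 members whose TE rose (left, red) and 10 of the 11 whose TE fell (right, blue). Circles are replicate 1, squares replicate 2, open symbols control and filled symbols arsenite. Lines join control to arsenite within a replicate, and every line points up on the left and down on the right.

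The annotated 5′ ends of some called members carried an unbroken run of C and T at or near the start. mRNAs of ribosomal proteins and translation factors are known for such a run at their first base (5′ terminal oligopyrimidine mRNAs). The rule used here is looser and does not count such mRNAs. A run was counted when it began with C within 10 bases of an annotated start and held at least 8 bases of C or T, on the mRNA strand. In RefSeq (GRCh38.p14), starts were found for 169 of the 203 members, and 36 of these (21.3%) had such a run, against 12.4% of the 8577 genes tested for TE that had a start there. Of the called members it was present in 2 of 6 with a start that rose and in 3 of 9 that fell, so both directions are represented. The first base of the whole run was counted, so CCNI, whose start lies inside a run that begins more than 10 bases before it, is not among them. EEF1A1, whose run from its first C is shorter than 8 bases, is also left out. In PCBP2 and CSNK1A1 most of the run lies before the start, and CSNK1A1 has another annotated start without a run. The starts of the 5 members counted are shown because they are what members of opposite response share, from 10 bases before to 20 bases after the start, with the run in capitals. The positions are chrX:119791611-119791640 (minus strand) for RPL39, chr12:56116623-56116652 (plus) for RPL41, chr12:53452092-53452121 (plus) for PCBP2, chr5:149551420-149551449 (minus) for CSNK1A1 and chr5:73498432-73498461 (plus) for BTF3.
RPL39, TE higher: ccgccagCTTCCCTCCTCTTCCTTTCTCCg
RPL41, TE higher: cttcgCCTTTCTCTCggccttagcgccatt
PCBP2, TE lower: ccgtCCCCCTCCCagaccagcagaggcagc
CSNK1A1, TE lower: agatCCCTTTCCCagagtgctctgcgccgt
BTF3, TE lower: cttccggCCTCCCTTTagctgccatcttgc
An ATG within the 50 bases after the annotated start was found in 30.8% of the matched members and in 42.0% of the matched genes tested. It was in 0 of the 6 members that rose and 0 of the 9 that fell. These letters cover only the beginning of each leader, and say nothing of uORFs further in.

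The leader to CDS ratio was higher in arsenite in most members. Summed over members, leader reads made up 0.945% of leader and CDS reads (0.907 to 0.984) in control replicate 1 and 1.19% (1.13 to 1.25) in arsenite, and 2.12% (2.09 to 2.15) and 4.01% (3.94 to 4.07) in replicate 2. The ratio of the sums was 1.26 and 1.93 times that of control, and 1.24 and 1.93 times over all genes, whose sums include the members. The difference between members and other genes was not tested. Gene by gene, the median log2 change of the ratio was 0.40 in replicate 1 and 0.75 in replicate 2. It was above 0 in both replicates in 119 members and below 0 in both in 15. In replicate 1 these counts rest partly on the pseudocount, since 20 members had 0 leader reads in control and 23 in arsenite. Where both were 0, a lower CDS count in arsenite by itself gives a rise. Because members were selected on high control leader reads, chance differences in these reads tend to lower the ratio in arsenite, and no test was made.

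The change of the ratio differed with the call on TE. Among the 7 members whose TE rose its median was -0.76 and -1.14 (log2, replicates 1 and 2), and it was below 0 in both replicates in 4 of them. Among the 11 whose TE fell it was 1.12 and 1.21, above 0 in both in 9. These include BTF3, which had 0 leader reads in control and arsenite of replicate 1 (of 1866 and 639 leader and CDS reads). Its change there comes from the pseudocount and the CDS reads alone. Among the 183 not called it was 0.44 and 0.75. CDS reads are part of both the ratio and TE, so a CDS that gains reads lowers its ratio by construction. The leader reads alone do not share this, although control leader reads chose the members. Their median log2 change relative to the library was 0.64 and 0.52 in members whose TE rose, 0.23 and -0.29 in those whose TE fell and 0.44 and 0.70 in those not called.

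**Figure D3:**
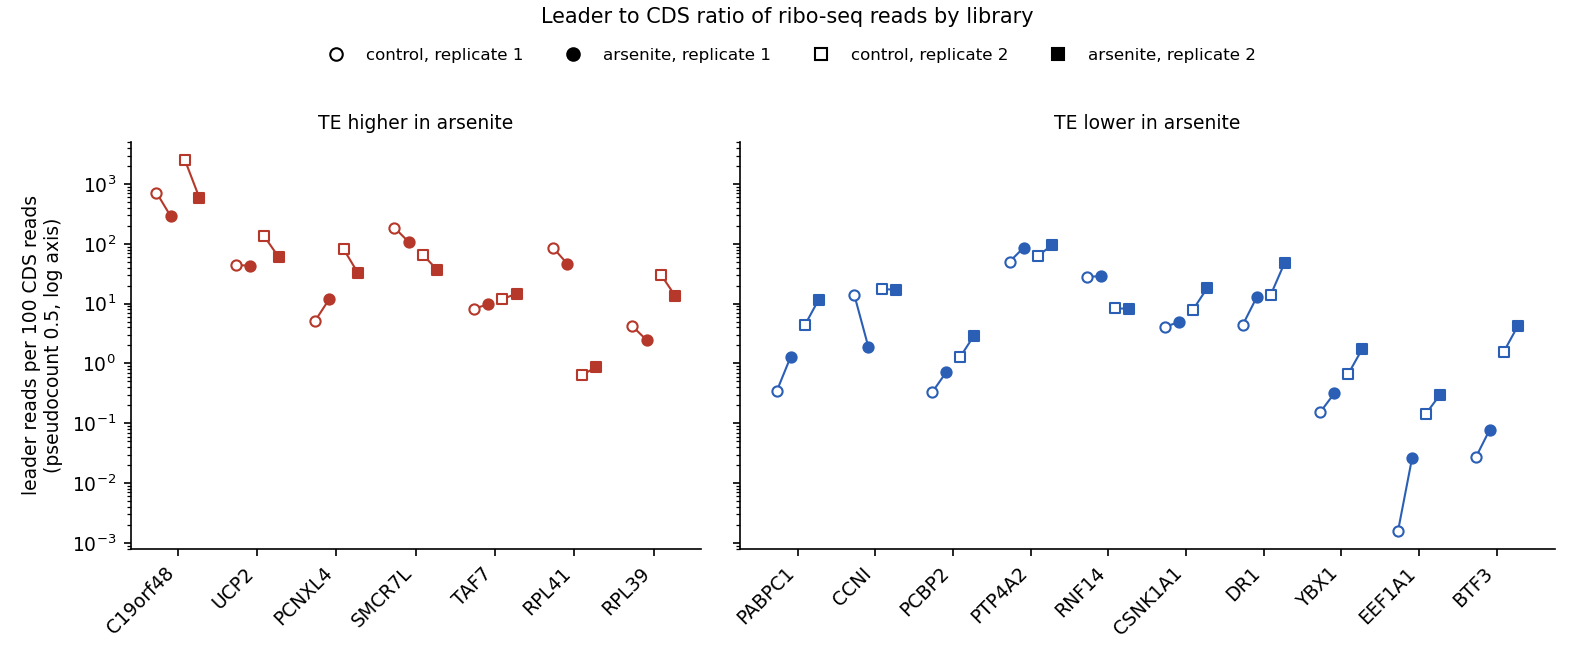
Leader ribo-seq reads per 100 CDS reads (log y axis, 0.5 added to both counts) for the 7 members whose TE rose (left, red) and 10 of the 11 whose TE fell (right, blue), with symbols and lines as in the plot of CDS reads. C19orf48, SMCR7L and RPL39 are lower in arsenite in both replicates, and PABPC1, PCBP2, PTP4A2, DR1 and YBX1 higher in both.

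The calls on TE are set out here by the control ratio as a description, since control leader reads chose the members and the ratio is not per length. With members split into 4 groups of rising control ratio, the lowest group (0.107 to 1.44 leader reads per 100 CDS reads, 51 members) held 0 members that rose and 5 that fell, with a median log2 TE change of -0.24. The next held 1 that rose and 1 that fell, and the one after it 1 and 2. The highest (14.7 to 2245, 50 members) held 5 that rose and 3 that fell, with a median of 0.09. Control CDS reads enter both measures, and fell from a median of 10777 in the lowest group to 256 in the highest. To keep reads apart, the control ratio of each replicate was set against the TE change of the other. Across the 201 members Pearson's r was 0.32 (Spearman's rho 0.31) for the ratio of replicate 1 and the TE change of replicate 2, and 0.10 (0.14) the other way. The points share libraries and depth, genes are not independent replicates, and the values in the pairings differed, so no relation is drawn from them. Of the 8 members with over 100 leader reads per 100 CDS reads in control, C19orf48 and UCP2 rose, EIF1AX and POMZP3 were not tested, and MKKS, CCNB1IP1, MESDC1 and R3HCC1 did not pass the test.

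Division by the same ratio in mRNA-seq, a relative leader TE introduced after the data were seen, takes out how much of each mRNA is leader. It was over 1 in both control replicates in 17 members. Of these 3 rose in TE (C19orf48, UCP2 and SMCR7L), 0 fell and 14 did not pass the test, and their median log2 TE change was 0.22. Of the other 184 members tested, 4 rose and 11 fell, with a median of -0.11. Across replicates the correlation with the TE change was 0.30 and 0.20 (Pearson's r, 201 members). This measure holds the control leader reads that chose the members, and its control CDS reads also enter the TE change. The split is thus a description, and no relation is drawn from it. A relative leader TE over 1 was found in some members that rose, and in more that did not pass the test.

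**Figure D4:**
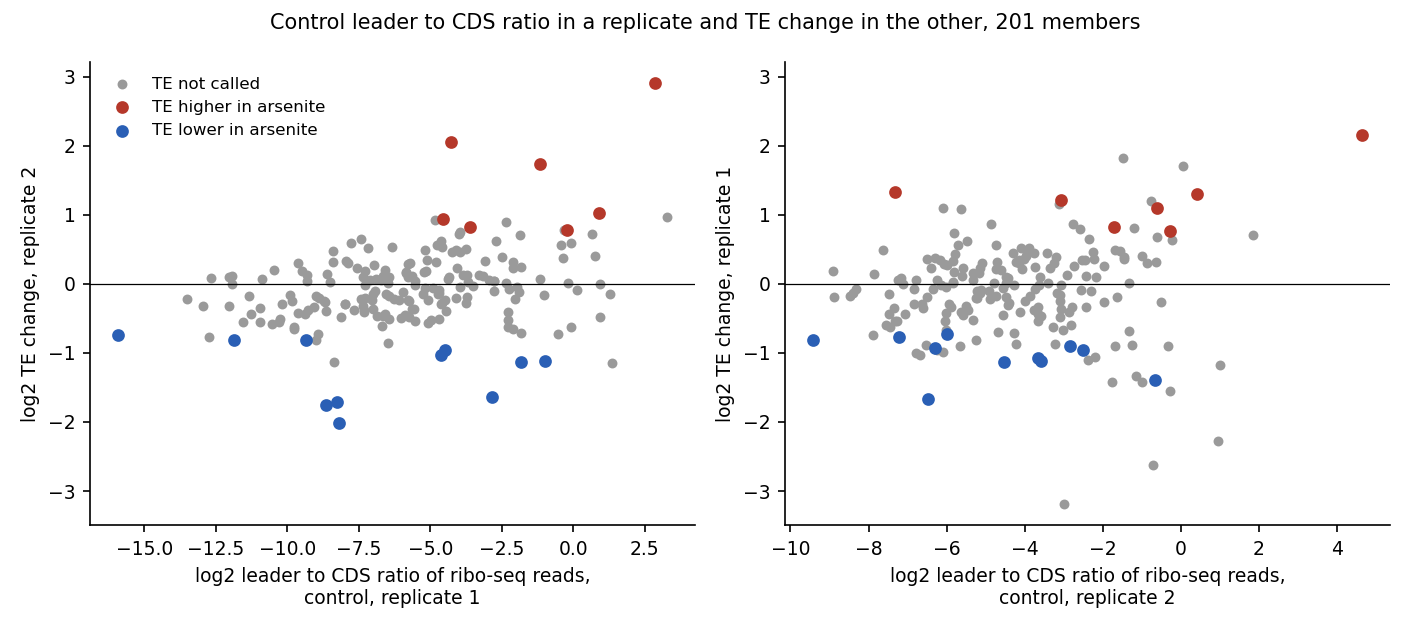
Log2 ratio of leader to CDS ribo-seq reads in control (x axis, 0.5 added) in replicate 1 against the log2 TE change in replicate 2 (left) and the other way (right), 1 point per member tested. Members whose TE rose (red) lie mostly to the right on the left panel. Those whose TE fell (blue) spread over low and middle ratios and do not reach the right end of either panel.

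Several mRNAs with the highest leader to CDS ratios of reads did not pass the test. MKKS, a chaperonin-like protein, had 193 and 365 leader reads per 100 CDS reads in control and 173 and 437 in arsenite, and a log2 TE change of 0.22 ± 0.34 (SE). CCNB1IP1, a ubiquitin ligase of meiotic recombination, had 63 and 49 leader reads against 6 and 47 CDS reads in control, and 39 and 46 against 10 and 41 in arsenite. Its TE change of 1.15 ± 0.30 (log2) was the highest of the members not called (edgeR adjusted p = 0.0742). MESDC1 and R3HCC1, with 196 and 166 leader reads per 100 CDS reads over both controls, had TE changes of -0.70 ± 0.48 and -0.35 ± 0.36 (log2, SE). The CDS of these 4 held 47 to 73 ribo-seq reads in control, and their standard errors were wide beside the median of 0.17 over members.

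Of the 6 members with the most leader reads in control, C19orf48 rose in TE and the other 5 did not pass the test. PTMA, prothymosin alpha, had 2 and 603 leader reads in control and 2 and 526 in arsenite, almost all in replicate 2, and its log2 TE change was -0.07 ± 0.21 (SE). EIF5, the GTPase-activating factor of eIF2, had 67 and 416 leader reads in control and 48 and 154 in arsenite. Its ratio was 14.4 and 21.4 leader reads per 100 CDS reads in control and 14.2 and 17.6 in arsenite, and its TE change was 0.20 ± 0.17. HNRNPA2B1, a splicing regulator, had 0.577 and 1.53 leader reads per 100 CDS reads in control and 1.96 and 3.50 in arsenite, with a TE change of -0.44 ± 0.16. MORF4L2, a chromatin protein, was at -0.01 ± 0.15. HIST1H2BK, a histone H2B gene, moved in opposite directions, by -3.19 in replicate 1 and 0.52 in replicate 2, and its SE of 0.89 was the largest of all members. Near-identical histone genes share reads, which the authors discarded, so its level is uncertain.

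By function, 67 of the 203 members stood in a list drawn up with earlier results of these data known, so their counts are descriptions. Of 5 stress and uORF genes 3 rose (UCP2, SMCR7L and TAF7), and 0 fell, with HSPA5, the endoplasmic reticulum chaperone BiP, at 0.20 ± 0.15 and JUN at -0.17 ± 0.17 (log2 TE). Several of these were listed because they had been noted in these samples. Over all 24 genes of that list tested, 4 rose and 0 fell. Of 9 translation factors tested 0 rose and 2 fell (PABPC1 and EEF1A1). EIF4G2, an eIF4G relative that starts at a non-AUG codon, was highest among them at 0.38 ± 0.16, and EIF4G3 stood at -0.04 ± 0.18. Of all 64 translation factor genes tested, 0 rose and 3 fell. Of 13 genes in the ribosomal protein list 2 rose (RPL39 and RPL41) and 0 fell, with RPL10 lowest at -0.40 ± 0.15, and the median of the 13 was -0.09. NACA and GNB2L1, added to that list by name, are among the 13. Over all 96 genes of that list tested, 2 rose and 2 fell.

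Of 18 RNA-binding and splicing proteins 0 rose and 1 fell (PCBP2), but 15 had a negative change, with a median of -0.19 against -0.04 over the 139 genes of the list tested. SRSF2, a splicing factor, was the exception at 0.82 ± 0.20 (edgeR adjusted p = 0.0643), and its ribosome occupancy rose (log2 change 0.89, edgeR adjusted p = 0.0130). Over the 139 genes of the list tested, TE rose in 1 and fell in 4. Of 4 kinases and phosphatases 2 fell (PTP4A2 and CSNK1A1), and CDKN2C, an inhibitor of cyclin-dependent kinases that the list takes in by its symbol, was at 0.59 ± 0.23. In that whole list 214 genes were tested, of which 5 rose and 5 fell. Among 8 ubiquitin genes 1 fell (RNF14), and CUL5, a cullin scaffold, was highest at 0.27 ± 0.33. Among all 204 ubiquitin genes tested, 2 rose and 5 fell. None of the 4 transcription and chromatin genes passed the test by edgeR (at an unadjusted p under 0.05, ZNF664 and ZNF146 did), from ZNF664 at -0.82 ± 0.26 to SOX4 at 0.28 ± 0.16, nor did the 4 chaperones, none of which had an unadjusted p under 0.05, from CCT4, a chaperonin subunit, at -0.24 ± 0.15 to HSPA5. In the pair of members with known non-AUG starts (EIF4G2 and R3HCC1) and in AMD1, an enzyme of polyamine synthesis with a uORF, at -0.01 ± 0.24, TE did not pass it either. At an unadjusted p under 0.05 by edgeR there were 72 of the 201 members tested, against 18 after adjustment. The share of all genes at that unadjusted cut is not given, so nothing about members is read from this count. NKRF, a repressor of NF-kappa-B target genes, stood at 0.13 ± 0.16.

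**Figure D5:**
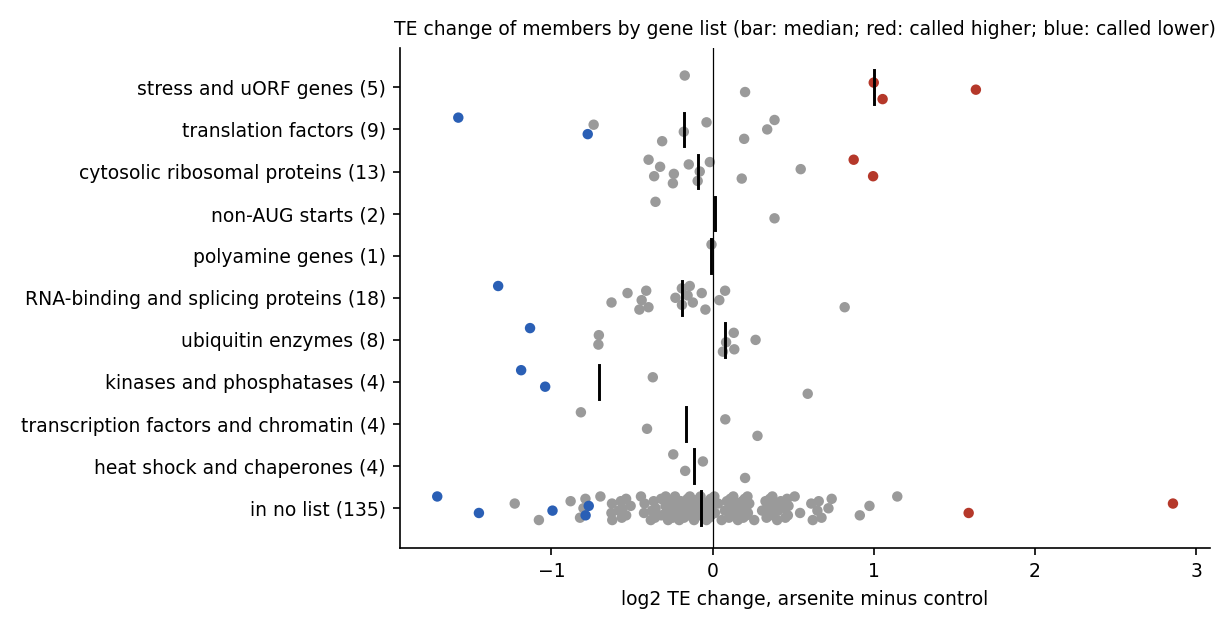
Log2 TE change of the members tested (x axis), 1 point per member, by gene list (rows, number of members in brackets, with a gene in more than 1 list shown in each). Bars are medians, red points are members called higher and blue points members called lower. Called members occur in 6 of the 10 lists and among the 135 members in no list.

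Ribosome occupancy rose in 10 members (1.58% of all 10290 genes tested rose) and fell in 14 (1.5% fell), out of 201 tested. Beside those called in TE, it rose for SRSF2, JUN and RHOB. It fell for ANAPC13, a subunit of the anaphase-promoting complex, by 0.98 on the log2 scale (edgeR adjusted p = 0.0250) and for EEF1B2, an exchange factor for EEF1A1, by 0.81 (edgeR adjusted p = 0.0174). RAD23B, a ubiquitin receptor in DNA repair, fell by 0.80 (edgeR adjusted p = 0.0220), and PRELID1, a mitochondrial lipid transfer protein, by 0.70 (edgeR adjusted p = 0.0417). The TE of these 4 had the same sign and did not pass the test.

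RNA level rose in 21 of 203 members (4.01% of all 12576 genes tested rose) and fell in 11 (1.69% fell). The changes were small except for JUN, a subunit of the transcription factor AP-1. Its mRNA stood at 191 and 200 CPM in control and at 476 and 576 CPM in arsenite and rose 2.73-fold (log2 change 1.45, edgeR adjusted p = 2.76e-156). Its CDS footprints rose with it, from 121 and 212 CPM to 254 and 551 (log2 change 1.23, edgeR adjusted p = 0.000522), so that TE did not pass the test. HSPA1B, an inducible heat shock protein with a near-identical paralog, rose by 0.54 (log2 RNA change; edgeR adjusted p = 2.1e-17) and RHOB, a small GTPase, by 0.34 (edgeR adjusted p = 1.99e-06). HSP90AB1, a cytosolic chaperone, rose by 0.33 (edgeR adjusted p = 9.14e-10), while its leader to CDS ratio went from 0.146 and 0.694 reads per 100 CDS reads in control to 0.227 and 1.66 in arsenite. MCRS1, whose ratio was higher in arsenite in both replicates (in replicate 1, from 15.3 to 32.1 leader reads per 100 CDS reads), fell in RNA by 0.18 (log2; edgeR adjusted p = 0.0241). Of the 32 members called in RNA, 3 were also called in TE, beside 7 higher and 11 lower of all 201 members tested for TE. For these 3 (PABPC1, RPL41 and PCNXL4) the directions were opposite. TE is taken relative to mRNA-seq reads, so a change in RNA by itself moves TE the other way.

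EIF1AX and POMZP3 had too few CDS reads for a test of TE. EIF1AX, an initiation factor that scans with the small ribosomal subunit, had 4 and 102 leader reads but 10 and 6 CDS reads in control, and 3 and 64 against 12 and 3 in arsenite. Reads that also matched another gene had been discarded by the authors, so its ratio and that of POMZP3 are uncertain. POMZP3 had 9 and 107 leader reads in control and 12 and 78 in arsenite, and 0 CDS reads in all 4 libraries.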

How the data were processed

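Ribo-seq and mRNA-seq of HEK293T cells in control and arsenite were compared, with 2 replicates each. Per the labels and the study's methods, the authors trimmed adapters with Cutadapt, removed spike-in and rRNA reads, aligned the rest to RefSeq transcripts with Bowtie 1.0.0, discarded reads that matched more than 1 gene, and deposited raw read counts per transcript and region, with no normalization. Spike-in reads were not used here. For 19964 genes 1 coding transcript each was taken, of 35851. From the deposited counts, TE (the interaction of assay and treatment), ribosome occupancy (CDS) and RNA level (whole transcript) were fitted over every gene that averaged 10 counts or more per library, using edgeR 4.0.16 (R 4.3.3), TMM within each assay, the quasi-likelihood test and Benjamini-Hochberg adjustment over all genes tested. SE is the log2 change divided by the square root of F. Ratios added a pseudocount of 0.5. Figures and summaries used Python 3.11.15, pandas 2.3.3, numpy 2.4.6 and matplotlib 3.10.9.

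Each fit held the replicate as a block. That libraries of 1 number belong together follows from the methods (separate biological replicates, with other adapters and sequencing runs). Libraries of 1 replicate deviated together (correlation 0.700 over 10290 genes in ribo-seq, 0.775 over 12576 in mRNA-seq). Fits were tested on simulated data. Alternatives were DESeq2 1.42.0, other normalization, filters, transcripts, read regions and leader thresholds, no block, and leaving out libraries. Genes were named by rule: the called members with the largest changes, those with the most leader reads or highest ratios, both ends of each list, the largest ratio changes, members that the study's text names, and all genes tied at the leader read threshold. YBX1, EEF1A1, BTF3, HSPA1B and the members called in occupancy alone were named after their values were seen. Of the genes the rule picks, 1 is not reported here. Members and lists were chosen with earlier results of these data known.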

Additional observations from a re-analysis of the deposited data

How the results depend on the processing

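Without the replicate block 0 members were called higher and 0 lower in TE, in ribosome occupancy or in RNA level (edgeR; at an unadjusted p under 0.05, 5 and 3, 4 and 4, and 2 and 0). The replicates pair by the methods, so this fit adds the difference between them to the error. All 18 members called in TE kept their sign in each fit that tested them. DESeq2 called 17 of the 18, with 3 higher and 7 lower in occupancy and 11 and 1 in RNA level. With no filter on low counts 11 members rose in TE. With reads over the whole transcript the median TE change was -0.063. With members of at least 100 leader reads (59 genes), 4 fell in TE, with a median of -0.068; occupancy gave 6 higher and 5 lower, and RNA level 8 and 3. With at least 25 (567 genes), 18 rose and 19 fell in TE, with a median of -0.038; occupancy gave 22 and 27, and RNA level 47 and 21. Among genes with 1 coding transcript 5 fell in TE and the median was -0.026. These counts differ because fewer or more genes are members.

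Leaving out each library in turn gave 1 to 39 members higher and 1 to 67 lower in TE. Each of these fits left out a single library, so that 1 library remained in its group and the spread came from the other assay alone. Calls were many when a ribo-seq library was left out and few when an mRNA-seq library was. This held over all genes tested as well as over members, so nothing about members is read from these counts. Without either ribo-seq library of replicate 2, C19orf48, PCNXL4 and DR1 lost their calls, and PTP4A2 without that of arsenite. In the fits with a library left out, the TE change ran from -3.09 to 0.48 for HIST1H2BK and from -0.50 to 0.36 for AMD1. Both were above 0 without a ribo-seq library of replicate 1. AMD1 was also above 0, at 0.05, without the control mRNA-seq library of replicate 2. The median ratio change was 0.40 to 0.75 without a replicate. Occupancy and RNA level could not be fitted with a library left out, as no residual degrees of freedom remain under the block. Smaller changes ended calls near the threshold: DR1 under 4 settings, BTF3 under 3, RPL39 under 2, and SMCR7L, RPL41 and PCNXL4 under 1 each. Depth limits leader reads most, with a median of 6 per member in control replicate 1 and 4 in arsenite.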
